A study of Drosophila melanogaster with 10 samples.

Results

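The folding of the pericentromeric regions was compared between the chromosome arms chr2L, chr2R, chr3L, chr3R and chrX of wild-type (WT) S2 cells, a male Drosophila melanogaster line derived from embryos and kept in culture, which carries altered chromosome numbers. Contacts were measured by 5C in 3 WT libraries, of 9 libraries with a deposited interaction file; the others came from cells given dsRNA against HP1a, against Su(var)3-9 or as a mock treatment, and were not used here. The WT cells received no dsRNA and are given as wild type in the labels. All pairs of different bins on the same arm were taken, each once, which gave 40796 bin pairs from 603 bins. A score of exactly 0 was treated as missing.

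Pericentromeric heterochromatin is the repeat-rich, H3K9me3- and HP1a-bound chromatin that flanks the centromeres, and in Drosophila it also holds active genes that depend on this environment. Heterochromatin of the different arms gathers into a chromocenter in the nucleus. The contact frequency of 2 loci falls with the distance between them along the chromosome, and how fast it falls, how often distant loci still meet and which loci stand out describe how a region is folded.

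In 5C, primers of 2 kinds, forward and reverse, anneal side by side across the junction of EcoRI fragments that were ligated in the 3C library, and only fragments with a primer can be seen. The fly part of every primer read here was 30 bases long and ended or began with the piece of the EcoRI site that is shown in capitals. The first forward and the first reverse primer listed for 4 arms show what was ligated. Over the 557 primers with a full sequence, the GC content averaged 40.7% ± 10.1 (SD).
chr2L forward: ttcaattactgcaaaatgtcctaaaatGAA
chr2L reverse: TTCaatacatgcaaaaaataagaaaaaact
chr3L forward: ttactattggttctaaagtctgtcataGAA
chr3L reverse: TTCtcccacgggtgcagatggaggcaggcg
chr3R forward: ggaaacactatatttgtattcaatcaaGAA
chr3R reverse: TTCtcctcctcgtctatgatcattaatcta
chrX forward: acgactgcgttcgaagcacagagcgctGAA
chrX reverse: TTCctaagtaaagagatagaatttctaggc

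The primer list read here holds 558 primers named for these arms. The paper states a larger number of designed primers, so the densities cover only those read here. Among these, chr3R had the densest set, with 60 primers or 1.42 per 10 kb, followed by chr2L with 119 (1.12 per 10 kb), chrX with 82 (1.11), chr2R with 140 (1.02) and chr3L with 157 (0.936). The paper reports that too few interactions mapped to chr3R to call domains on that arm. How primer density relates to the number of contacts was not tested.

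The score is the log2 of observed over expected contact frequency for 1 pair of bins, as the authors deposited it, after median smoothing over 10 kb. It is relative to an uncrosslinked control library and to an expected value at each distance. The files were saved per arm, and whether the expected values were fitted for each arm alone is not known. This bears on every level and every slope set across arms below. Bins were 10 kb long on 4 arms and 5 kb long on chrX. In dm3 coordinates, the regions were chr2L:21906057-22967798 with 107 bins, chr2R:19746-1385689 with 137 bins, chr3L:22866370-24543557 with 168 bins, chr3R:6153-428656 with 43 bins and chrX:21659812-22397716 with 148 bins. The centromere lies beyond the high coordinates on chr2L, chr3L and chrX and below the low coordinates on chr2R and chr3R. Missing bin pairs made up 27.2% ± 0.115 of chrX, 15.6% ± 0.293 of chr3R, 8.98% ± 1.07 of chr2L, 6.83% ± 0.601 of chr2R and 6.04% ± 0.285 of chr3L (SD, n = 3 libraries). Smoothing made neighbouring bins alike: in all 3 libraries, the scores of 22.4% of neighbouring bin pairs on chrX were identical along the whole arm, against 0% on chr3R. The files hold scores and not counts, so the counting error of a score is unknown. WT replicate 3 had the fewest reads.

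The libraries stood apart on single arms. On chr2L, WT replicate 2 had a median score of -0.075, against -0.50 and -0.37 in WT replicates 1 and 3. On chrX, WT replicate 3 had a median of -0.81, against -0.37 in each of the other two. Arms were compared within each library, with an exact two-sided permutation of the arm labels within libraries over 14400 arrangements (smallest p 6.94e-05) and Benjamini-Hochberg adjustment over 8 measures. Where 2 arms are compared, the difference is the mean ± SD over the 3 libraries of the first arm minus the second. A sign-flip test of 3 libraries cannot give a p below 0.25, so the number of libraries with the same sign is given. The WT libraries are numbered as replicates in the labels and are biological replicates according to the methods.

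With missing scores left out, mean scores fell with distance on every arm, and most steeply on chr2L. The score is already divided by an expected value at each distance. Its slope is therefore what is left after that division, and not the fall of contact frequency itself. From 20 to 400 kb, the score on chr2L fell with a slope of -0.14, -0.16 and -0.16 per doubling of distance in WT replicates 1, 2 and 3, a mean of -0.15 ± 0.0087. The mean slope was -0.099 ± 0.021 on chr3L, -0.083 ± 0.0027 on chr2R, -0.069 ± 0.034 on chr3R and -0.054 ± 0.034 on chrX (SD, n = 3). The arms differed by the exact permutation test (adjusted p = 0.0319). The slope of chr2L lay below that of each other arm in 3 of 3 libraries, by -0.067 ± 0.0092 against chr2R, -0.051 ± 0.014 against chr3L, -0.082 ± 0.026 against chr3R and -0.096 ± 0.034 against chrX. The slope of chr3L was also below those of chr3R and chrX in 3 of 3 libraries, by -0.030 ± 0.013 and -0.045 ± 0.031. Between chr2R and chr3L, chr2R and chr3R, chr2R and chrX, and chr3R and chrX, the sign differed among libraries. With WT replicate 1, 2 or 3 left out, the adjusted p became 0.133, 0.233 and 0.167, and chr2L kept the steepest slope each time. With scores of exactly 0 kept as values, the mean slopes were -0.14 on chr2L, -0.095 on chr3L, -0.082 on chr2R, -0.030 on chrX and 0.00098 on chr3R, so the fall on chr3R was lost. With 2 libraries there are 120 arrangements and the smallest exact p is 0.00833. Without WT replicate 1, the share above 0 over 200 kb reached this p, and its adjusted p was still 0.0667 by the exact test. A measure could therefore hardly pass with 2 libraries, and a miss there says little.

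**Figure D1:**
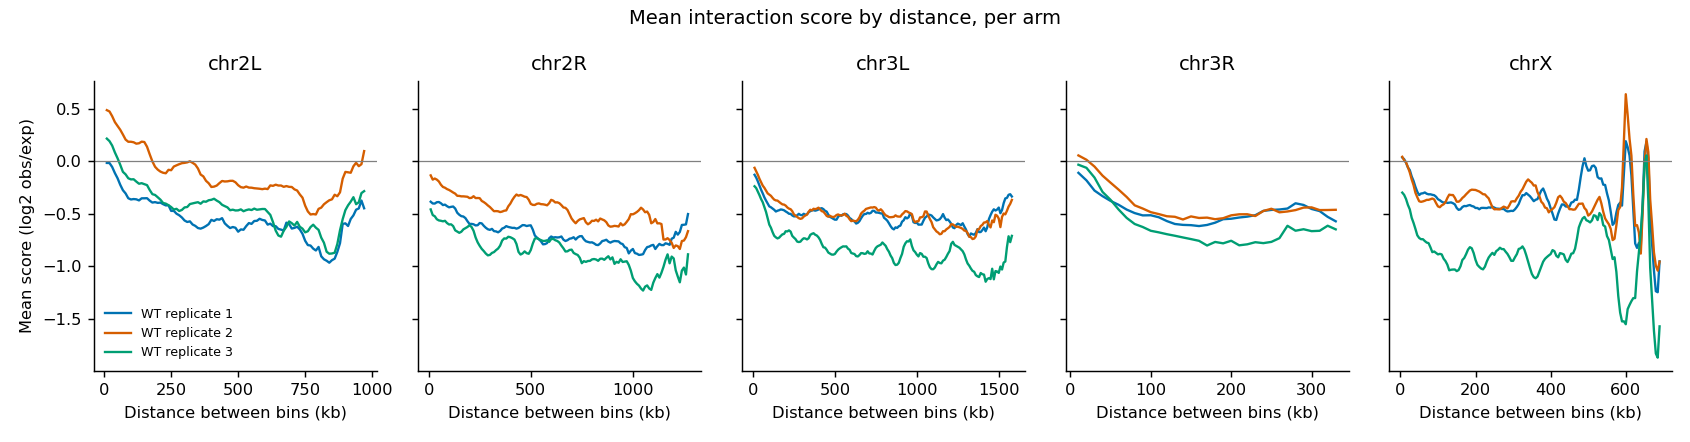
Mean score (log2 observed over expected) of the bin pairs at each distance (kb) on each arm, 1 line per WT library; distances with under 10 bin pairs are left out and the grey line marks 0. On chr2L the lines of WT replicates 2 and 3 start above those of any other arm, and all 3 fall through most of the range, on chr3R they flatten after about 150 kb, and on chrX they show single peaks beyond 400 kb, where few pairs had a value.

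The shape of the fall in score differed in ways that a slope does not describe. On chr2L, the mean score was 0.22 ± 0.25 below 30 kb, -0.13 ± 0.28 from 100 to 150 kb, -0.36 ± 0.27 from 300 to 400 kb and -0.56 ± 0.25 from 800 to 1100 kb (SD, n = 3). chr2R started at -0.35 ± 0.17 below 30 kb and reached -0.64 ± 0.17 at 300 to 400 kb and -0.79 ± 0.22 at 800 to 1100 kb. chr3L started at -0.16 ± 0.085, reached -0.49 ± 0.16 at 100 to 150 kb and was at -0.63 ± 0.21 from 600 to 800 kb. On chr3R, the mean was -0.054 ± 0.090 below 30 kb, was lowest at -0.64 ± 0.12 from 150 to 200 kb and then stood at -0.49 ± 0.079 from 300 to 400 kb. That last class held 47 to 50 pairs with a value, from the ends of the region. chrX had a mean of -0.14 ± 0.20 below 30 kb, -0.58 ± 0.34 at 100 to 150 kb and -0.52 ± 0.24 at 400 to 600 kb.

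A score above 0 marks a bin pair with more contact than expected, and such pairs were most frequent on chr2L at short range. Below 100 kb, 29.4%, 77.6% and 47.0% of the scored pairs of chr2L were above 0 in WT replicates 1, 2 and 3. The share was 24.4%, 25.9% and 9.88% on chrX, 24.0%, 26.6% and 20.1% on chr3L, 16%, 38.6% and 15.6% on chr2R and 3.67%, 16.9% and 16% on chr3R. chr2L was the highest arm in each library, with chr2L minus chr2R at 27.9 ± 13.1 points, chr2L minus chr3L at 27.8 ± 22.8, chr2L minus chr3R at 39.2 ± 18.9 and chr2L minus chrX at 31.3 ± 23.9. The arms differed by the exact permutation test (adjusted p = 0.0325). Without WT replicate 1, 2 or 3 the adjusted p was 0.160, 0.233 and 0.167. With the median of every arm set to 0 within each library, which removes any level set per arm, the mean shares below 100 kb were 81.0% on chr2L, 80.6% on chr3L, 75.6% on chr3R, 70.6% on chr2R and 64.5% on chrX (exact permutation test, adjusted p = 0.0287). chr2L was then hardly above chr3L.

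Over all distances, 8.13%, 40.5% and 16.9% of the scores of chr2L were above 0 in WT replicates 1, 2 and 3. chrX had 16.6%, 20.5% and 4.82%, and the means of the other arms were 6.52% ± 4.99 (chr2R), 5.27% ± 2.26 (chr3L) and 4.77% ± 2.89 (chr3R; SD, n = 3). The difference between arms did not pass the threshold after adjustment (exact permutation p = 0.0460, adjusted p = 0.0737). The regions differ in length, and a longer region holds more distant pairs. Among pairs up to 400 kb the means were 30.4% ± 21.7 on chr2L, 13.3% ± 8.40 on chrX, 10.1% ± 6.75 on chr2R, 8.94% ± 3.08 on chr3L and 4.77% ± 2.89 on chr3R, with an adjusted p of 0.0783 by the same exact test. The median score was -0.31 ± 0.22 on chr2L, -0.50 ± 0.099 on chr3R, -0.52 ± 0.26 on chrX, -0.57 ± 0.16 on chr3L and -0.60 ± 0.19 on chr2R (exact permutation test, adjusted p = 0.157).

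At long range, chrX and chr2L had the largest shares of scores above 0 and chr3R had none. Over 200 kb, the share on chrX was 16.6%, 18.9% and 3.53% in WT replicates 1, 2 and 3, and on chr2L it was 2.41%, 25.4% and 6.52%. It was 0.923%, 6.35% and 1.32% on chr2R and 3.64%, 4.02% and 0.461% on chr3L. On chr3R no pair at 50 kb or more had a score above 0 in any library, in a region of 423 kb. This is the arm on which the paper found too few interactions to call domains. The arms did not differ past the threshold (exact permutation test, adjusted p = 0.0837). In 3 of 3 libraries, however, chrX lay above chr2R (chr2R minus chrX -10.1 ± 7.02 points), above chr3L (chr3L minus chrX -10.3 ± 6.32) and above chr3R (chr3R minus chrX -13.0 ± 8.27). chr2L minus chrX changed sign, at -1.55 ± 11 points. On chrX the share of scores above 0 did not decline steadily with distance: it was 37.9% ± 8.80 below 30 kb, 8.37% ± 8.30 at 100 to 150 kb, 16.6% ± 13.1 at 300 to 400 kb and 37.7% ± 14.1 at 600 to 800 kb. The last class rested on 117 to 120 of 406 pairs. With each arm centred on its median, the shares over 200 kb lay between 37.3% on chr2L and 45.1% on chrX, with an adjusted p of 0.695 by the exact test.

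**Figure D2:**
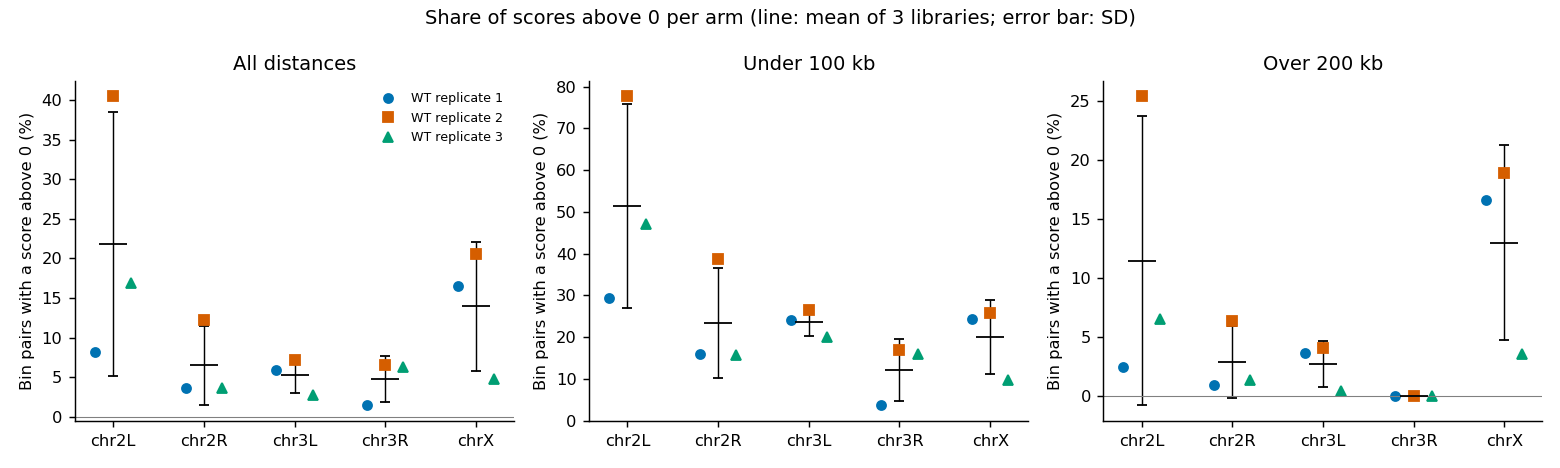
Percentage of scored bin pairs with a score above 0 on each arm, for all distances, under 100 kb and over 200 kb; points are the 3 WT libraries, the horizontal line is their mean and the error bar the SD. chr2L lies highest under 100 kb in each library (29.4% to 77.6%), while over 200 kb chrX and chr2L overlap and chr3R is at 0 in all libraries.

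The strongest long-range contacts were taken as the pairs over 200 kb apart that scored above 0 in all 3 libraries. Of 23492 pairs over 200 kb with a value in every library, 146 did so, which is 0.621%. chrX held 88 of 3771 pairs (2.33%), chr2L 35 of 3263 (1.07%), chr2R 11 of 6192 (0.178%), chr3L 12 of 10085 (0.119%) and chr3R 0 of 181. At 0.621%, 181 pairs would hold about 1, so the 0 of chr3R does not set it apart. Because scores were smoothed, neighbouring pairs are not separate contacts, and the pairs joined into 7 patches on chrX, 8 on chr2L, 4 on chr2R and 6 on chr3L. The bins of chrX are shorter, so a patch there holds more pairs. After chrX scores were averaged to 10 kb, 22 of 1016 pairs remained above 0 on chrX (2.17%), a share close to that at 5 kb. The order of the arms rested on the libraries and on the level of 0. With only 2 libraries required, there were 289 pairs without WT replicate 1, of which 96 were on chrX and 151 on chr2L, 182 without WT replicate 2 (113 on chrX and 39 on chr2L) and 641 without WT replicate 3 (443 on chrX and 71 on chr2L). These are counts, and shares were not computed for 2 libraries. With a value in all 3, chrX had 3771 such pairs and chr2L 3263. With each arm centred on its median, the share above 0 in all 3 libraries was 24.9% on chr3R, 22.6% on chr3L, 21.2% on chrX, 19.7% on chr2R and 14.7% on chr2L, so chrX and chr2L led only in the scores as deposited.

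**Figure D3:**
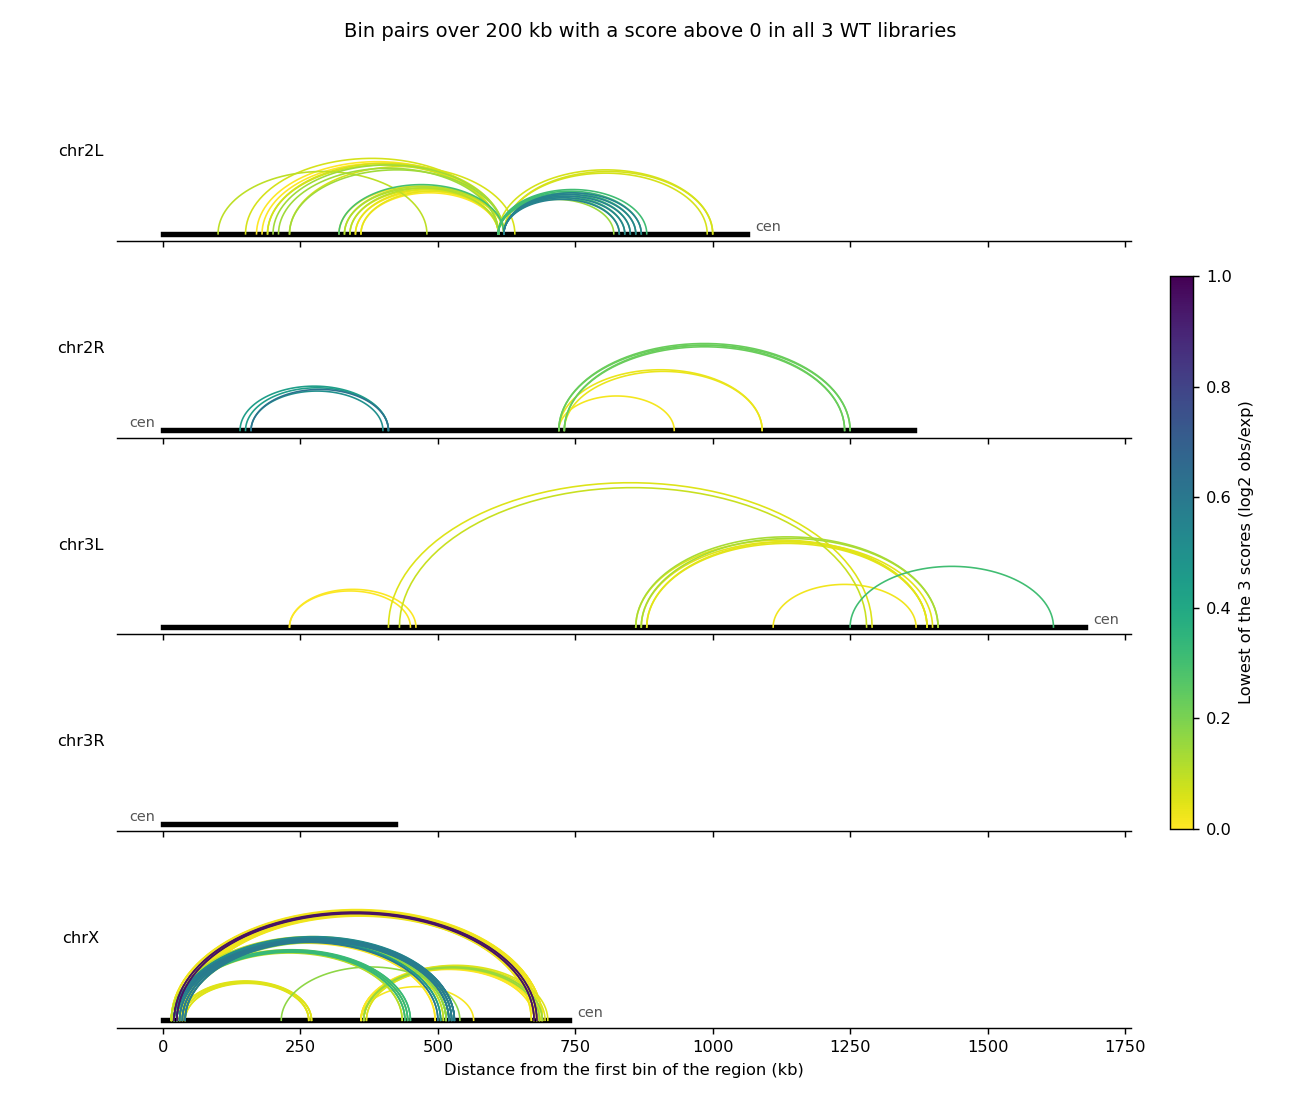
Each arc joins 2 bins over 200 kb apart whose score was above 0 in all 3 WT libraries, placed by distance (kb) from the first bin of the region; the colour gives the lowest of the 3 scores and "cen" the side of the centromere. Most arcs of chr2L leave 1 point near 610 kb, those of chrX fan out from the distal end of the region, and chr3R has none.

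On chrX, 68 of the 88 pairs lay over 400 kb apart. Of all chrX pairs, 1067 to 1083 at 400 to 600 kb and 117 to 120 at 600 to 800 kb were scored in a library. Over 200 kb, 3771 had a value in every library. The contacts fanned out from the end of the region that is far from the centromere. The strongest joined chrX:21679812-21684812 with chrX:22334812-22339812, 655 kb away, with scores of 1.20, 1.05 and 0.95 in WT replicates 1, 2 and 3, in a patch of 26 pairs. The same bin also met chrX:22159812-22164812, 480 kb away, with 1.16, 0.63 and 0.59 in a patch of 32 pairs, and chrX:22099812-22104812, 420 kb away, with 0.61, 0.51 and 0.33 in a patch of 10 pairs. These pairs were chosen for scores above 0 in all 3 libraries, so their signs are no separate support. Their scores also lay above the mean at the same distance, a mean that includes them. This bin and its neighbour chrX:21684812-21689812, whose scores were nearly the same after smoothing, took part in 34 of the 88 pairs. They were chosen as the 2 bins in most such pairs, and had 100 and 99 of the 3771 scored pairs. WT replicate 3 stood apart here. Of the pairs over 200 kb of chrX:21679812-21684812, 90%, 78% and 19% scored above 0 in WT replicates 1, 2 and 3, with mean scores of 0.44, 0.32 and -0.57. Among pairs of 600 kb and more without either bin, 18 of 76, 30 of 76 and 17 of 79 scored above 0 in WT replicates 1, 2 and 3 (23.7%, 39.5% and 21.5%). Other bins of the strongest patch, which spans chrX:21674812-21704812 at this end, stayed among them. These pairs are therefore not separate from that patch.

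On chr2L, the long-range contacts converged on the middle of the region. The bins chr2L:22516057-22526057 and chr2L:22526057-22536057 took part in 33 of the 35 pairs. They were chosen as the 2 bins in most such pairs, and each had 60 of the 3263 scored pairs over 200 kb. The strongest pair is among those 33. It joined chr2L:22526057-22536057 with chr2L:22736057-22746057, 210 kb towards the centromere, at 1.29, 0.56 and 1.02 in WT replicates 1, 2 and 3, in a patch of 12 pairs. On the other side, chr2L:22226057-22236057 met the same bin over 300 kb at 0.29, 0.60 and 0.33 in a patch of 10 pairs, and chr2L:22106057-22116057 met it over 420 kb at 0.29, 0.14 and 0.31. The contacts of these bins therefore ran in both directions along the arm. The farthest pair of chr2L above 0 in all libraries spanned 460 kb.

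chr2R and chr3L had fewer and mostly weaker contacts of this kind over longer regions. On chr2R, chr2R:179746-189746 and chr2R:429746-439746, 250 kb apart, scored 0.62, 1.10 and 0.90 in WT replicates 1, 2 and 3. The next patches left chr2R:739746-749746 for chr2R:1259746-1269746 over 520 kb, at 0.23, 0.28 and 0.40, and for chr2R:1109746-1119746 over 370 kb, at 0.10, 0.076 and 0.035. The last of these bins lies within Nipped-A, which encodes the fly homolog of the Tra1 subunit of the SAGA and Tip60 acetyltransferase complexes. On chr3L, chr3L:24116370-24126370 and chr3L:24486370-24496370, 370 kb apart, scored 0.49, 0.31 and 0.33. A patch of 6 pairs joined chr3L:23726370-23736370, which overlaps CG17698, with chr3L:24276370-24286370 over 550 kb at 0.16, 0.13 and 0.22. The farthest contact on any arm joined chr3L:23276370-23286370 with chr3L:24156370-24166370 over 880 kb, with low scores of 0.054, 0.080 and 0.056. chr3L:23296370-23306370, close to its first bin, met chr3L:24146370-24156370 over 850 kb at 0.084, 0.15 and 0.11.

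The arms also differed in how unequal their bins were. For each bin, the mean score was taken once the average score of its arm and library at the same distance had been subtracted, so that the position of a bin within its region weighs less. The SD of these means across the bins of an arm was 0.21, 0.22 and 0.22 on chrX in WT replicates 1, 2 and 3, and it averaged 0.17 ± 0.011 on chr2R, 0.17 ± 0.015 on chr2L, 0.17 ± 0.013 on chr3L and 0.13 ± 0.032 on chr3R (SD, n = 3). The arms differed (exact permutation test, adjusted p = 0.0128). In 3 of 3 libraries chrX exceeded every other arm and chr3R lay below every other arm, while chr2L, chr2R and chr3L could not be ordered. The adjusted p was 0.133, 0.133 and 0.167 without WT replicate 1, 2 or 3. chrX had the most missing pairs. Its SD was also the highest of the arms, and that of chr3R the lowest, with zeros kept as values (chrX 0.22), with only pairs scored in all 3 libraries (0.21) and at 10 kb (0.21). With all arms limited to pairs up to 400 kb, chrX led in the mean only, at 0.223 ± 0.023 against 0.208 ± 0.020 on chr2R and 0.195 ± 0.028 on chr2L. In WT replicate 3 it was then at 0.225, below chr2L at 0.227 and chr2R at 0.228.

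A model in which each score is the sum of a value for either bin explained 59.3% ± 5.99 of the variance of distance-corrected scores on chr3R, 48.3% ± 7.20 on chr3L, 42.3% ± 5.65 on chrX, 41.6% ± 0.360 on chr2L and 39.5% ± 4.32 on chr2R (exact permutation test, adjusted p = 0.0325). These shares were not adjusted for the number of fitted values, 1 per bin, which raises them most where a bin has few pairs. chr3R had 43 bins for 759 to 764 scored pairs, and chr3L had 168 for 13153 to 13227. With all arms limited to pairs up to 400 kb, the means lay between 44.3% ± 6.79 on chr2R and 59.3% ± 5.99 on chr3R (SD over the libraries), and the difference did not pass the threshold (exact permutation test, adjusted p = 0.111). Without WT replicate 1, 2 or 3, the adjusted p was 0.238, 0.167 and 0.167 by the exact test, which can hardly pass with 2 libraries. Across bins, the distance-corrected means of 2 libraries correlated with a mean r of 0.776 on chr3L (162 bins), 0.727 on chr2R (132 bins), 0.704 on chr2L (101 bins), 0.675 on chr3R (40 bins) and 0.576 on chrX (126 bins). These r are descriptions over bins that share smoothing and primers. On chrX the r between WT replicates 1 and 2 was 0.877, while WT replicate 3 gave 0.457 and 0.394 with them.

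**Figure D4:**
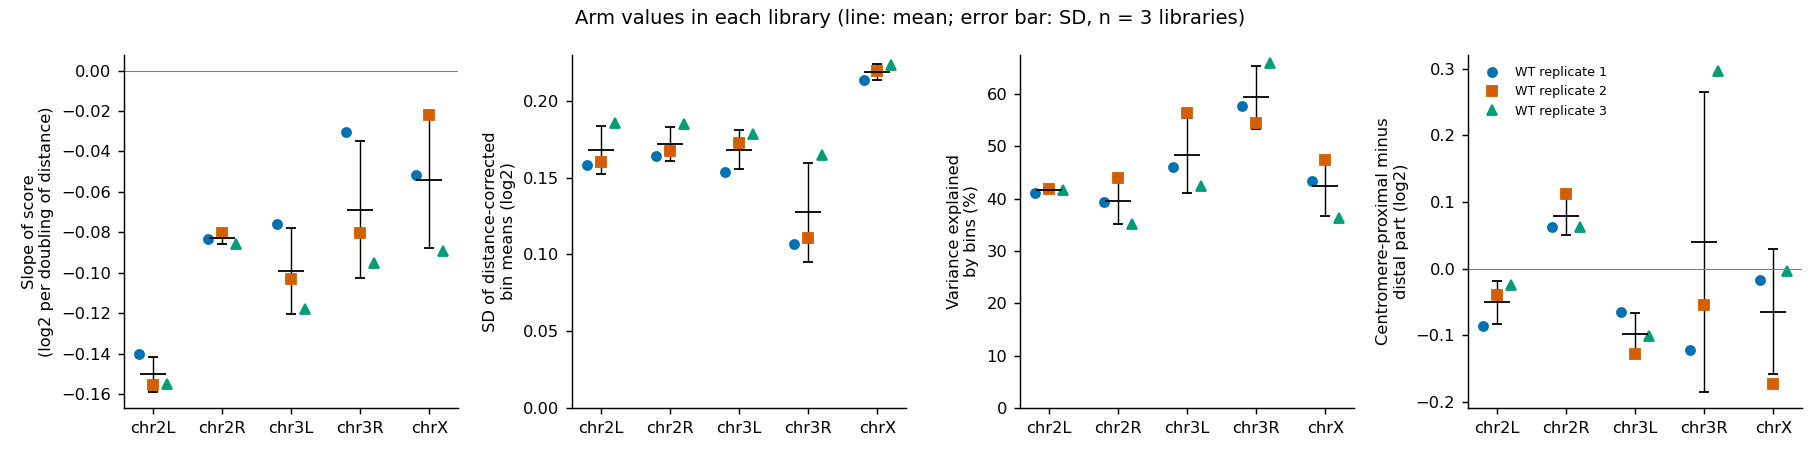
Values of each arm in the 3 WT libraries (points), with the mean (line) and SD (error bar): slope of the score from 20 to 400 kb, SD of the distance-corrected bin means, percentage of variance explained by bins, and proximal minus distal part. chr2L has the steepest slopes, chrX the largest SD in each library, and chr2R alone is above 0 in all libraries in the last panel.

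The bins with the highest and lowest means lay at different places on each arm. The bins named here were chosen by their mean score before the distance correction, and the values given are the distance-corrected means. On chr2L, the highest bins were those at the centre of the long-range contacts, with distance-corrected means of 0.40, 0.38 and 0.38 in WT replicates 1, 2 and 3 for chr2L:22516057-22526057 and 0.42, 0.25 and 0.24 for chr2L:22526057-22536057. The pairs over 200 kb that set these bins apart above also enter these means, so the values are not separate from those contacts. Next came chr2L:22656057-22666057 at 0.16, 0.36 and 0.21. The lowest was chr2L:22306057-22316057, at -0.36, -0.40 and -0.53, which overlaps Marf1. Closer to the centromere, chr2L:22796057-22826057 formed a run of bins with the same scores, and its first bin had -0.47, -0.39 and -0.18. The last bin of this run overlaps the gene light (lt). On chrX, chrX:21679812-21689812 was highest by either mean, at 0.77, 0.72 and 0.40 for its first bin, and chrX:21799812-21804812 was lowest at -0.64, -0.57 and -0.23, so the extremes of this arm lay within 120 kb of each other. chrX:22344812-22349812, near the other end, had 0.38, 0.25 and 0.30, and is within the patch that met the distal end. It was the third highest before the correction and the eighth after it. The high bins of chrX are likewise in its long-range contacts, so their means are not separate from those contacts.

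On chr2R, the low side was the deeper one. chr2R:119746-129746 had distance-corrected means of -0.59, -0.61 and -0.84 in WT replicates 1, 2 and 3, and its neighbours chr2R:109746-119746 and chr2R:129746-139746 averaged -0.52 and -0.37 over the libraries. The bins with the highest uncorrected means of this arm, chr2R:959746-969746 at 0.26, 0.21 and 0.25, chr2R:559746-569746 at 0.20, 0.20 and 0.24 and chr2R:569746-579746 at 0.20, 0.21 and 0.19, were less extreme. The last of these overlaps Nipped-B, the cohesin loader. By the distance-corrected mean, chr2R:1359746-1369746, which overlaps CG30440, ranked first at 0.22, 0.20 and 0.30. On chr3L, the highest bins were 3 neighbours, chr3L:23276370-23306370, with 0.22, 0.41 and 0.34 in the first of them, and the lowest were 3 neighbours with the same scores near the centromere, chr3L:24456370-24486370, with -0.19, -0.26 and -0.44 in the first. On chr3R, chr3R:16153-26153, which overlaps the beta-mannosidase gene beta-Man, had 0.28, 0.19 and 0.27, chr3R:406153-416153 at the other end had 0.21, 0.21 and 0.25, and chr3R:106153-116153 had 0.11, 0.15 and 0.33. Its lowest bins lay at chr3R:36153-66153, with -0.21, -0.14 and -0.20 in the first, and the last of them overlaps Gel, the fly gelsolin.

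**Figure D5:**
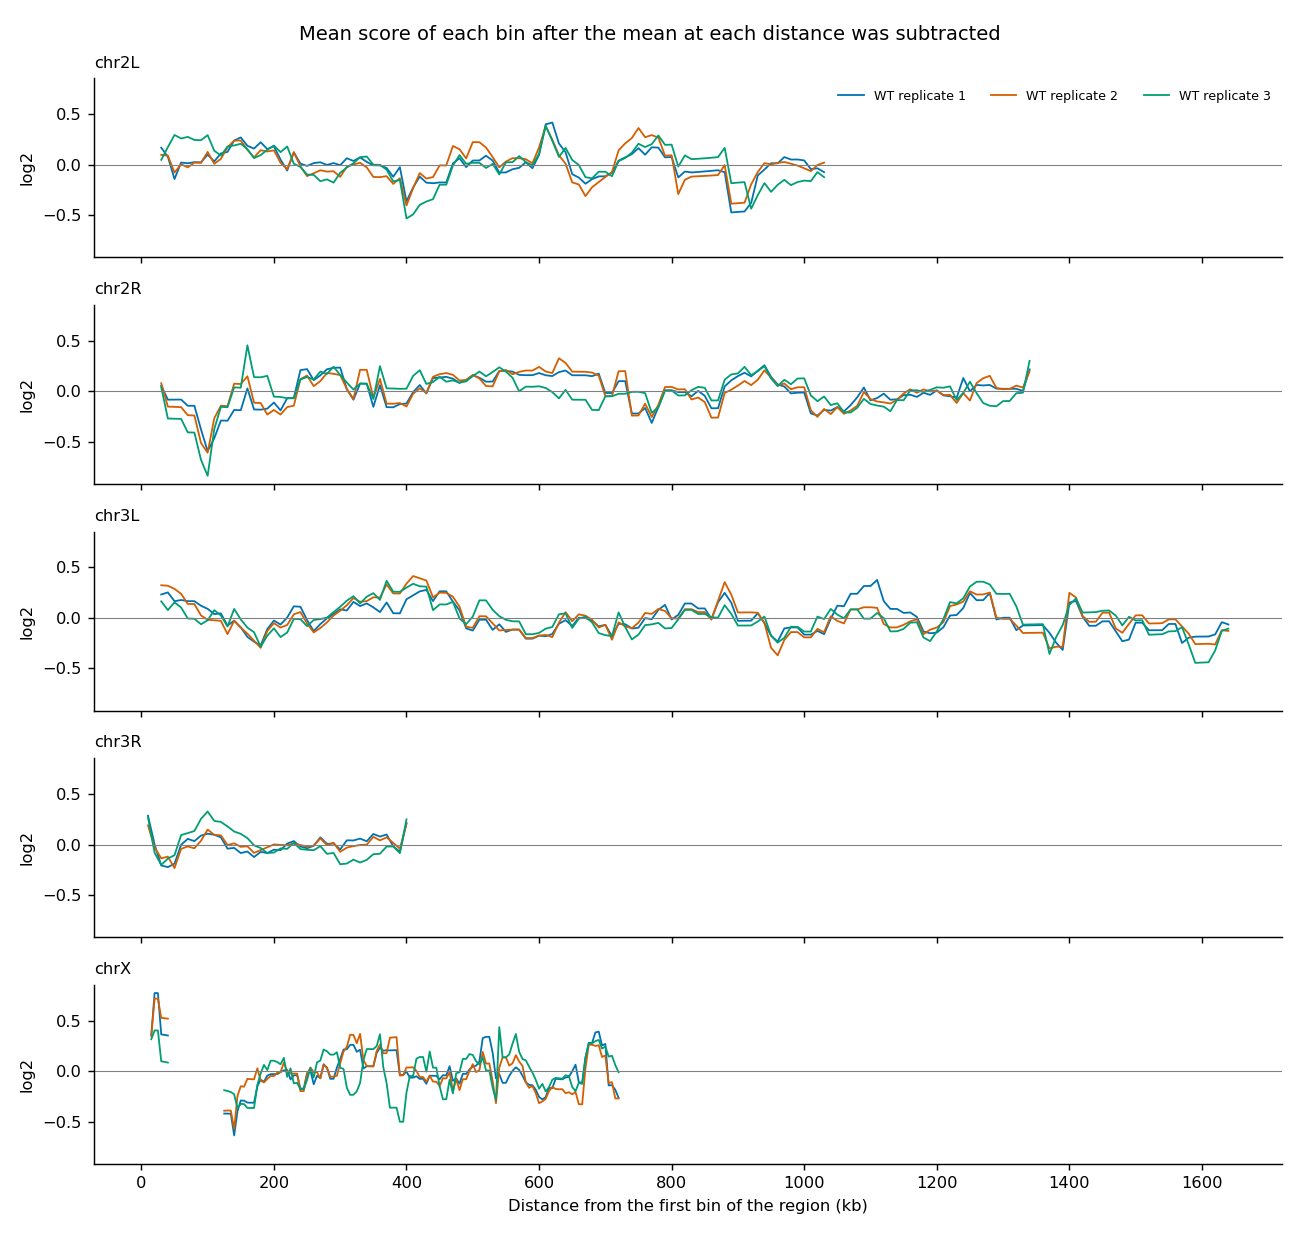
Distance-corrected mean score of each bin (log2), by distance (kb) from the first bin of the region, 1 line per WT library; bins with a value in under 0.5 of their pairs are left out. The deep trough of chr2R lies about 100 kb from its centromere-side end, the highest values of chrX lie at its distal end, and WT replicate 3 departs from the other libraries most on chrX.

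Genes could be placed on the bins only as far as the study's lists of differentially expressed genes give their dm3 positions. These lists are not complete, so a bin without a named gene may still hold one. Of 32 listed genes inside the regions, 30 had a bin in use. The distance-corrected mean over a gene's bins was above 0 in all 3 libraries for 7 of the 30 and below 0 for 10, against 30.1% and 33.2% of all 561 bins. light (lt), the classical heterochromatic gene that encodes a Vps41 protein of vesicle sorting, was the lowest of the listed genes of chr2L at -0.42, -0.29 and -0.30 in WT replicates 1, 2 and 3, and 3.96% of the bins of the arm lay below it. Marf1 followed at -0.20, -0.14 and -0.36. The bins of lt include the last bin of the run chr2L:22796057-22826057 and those of Marf1 include the lowest bin of the arm, so these values are not separate from the bins named above. RpL5, a ribosomal protein gene of the same arm, was at 0.065, 0.20 and -0.0070, and the G-protein subunit gene cta (concertina) was at 0.045, 0.022 and -0.17, so neither had a sign common to all libraries.

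On chr2R, Nipped-B was at 0.18, 0.20 and 0.084 and Nipped-A at -0.11, -0.14 and -0.15 in WT replicates 1, 2 and 3, so that these genes of the same arm lay on opposite sides of 0 in every library. The ER stress transcription factor gene Atf6 had -0.23, -0.22 and -0.070, and the G protein-coupled receptor kinase gene Gprk1 had 0.052, 0.011 and 0.082 over its 15 bins. On chr3L, BoYb, a Tudor-domain gene of the piRNA pathway, had 0.23, 0.32 and 0.16 in a single bin, and AGO3, the Argonaute of that pathway, had -0.034, -0.031 and -0.097 over 14 bins. On chr3R, beta-Man was at 0.14, 0.080 and 0.093. On chrX, CG34334 was lowest at -0.21, -0.24 and -0.18, and fog, which encodes the secreted ligand folded gastrulation, was at -0.081, -0.048 and 0.10. Above 0 in all 3 libraries were 4 of 7 genes on chr2R, 2 of 5 on chr3L, 1 of 5 on chr3R, 0 of 8 on chr2L and 0 of 5 on chrX. Of all bins, 38.6% were so on chr2L, 34.1% on chr2R, 27.8% on chrX, 26.5% on chr3L and 17.5% on chr3R. With so few genes per arm, these counts were not tested against the bins.

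Each region was also split at its middle, and the part nearer the centromere was set against the distal part. The mean distance-corrected score of pairs within the proximal part minus that within the distal part was 0.063, 0.11 and 0.062 on chr2R in WT replicates 1, 2 and 3. On chr2L it was -0.086, -0.040 and -0.025, on chr3L -0.066, -0.13 and -0.10, and on chrX -0.018, -0.17 and -0.0038. On chr3R it was -0.12, -0.055 and 0.30 and had no common sign. The arms did not differ by the exact permutation test (adjusted p = 0.288). In 3 of 3 libraries, chr2L lay below chr2R, by -0.13 ± 0.037, and chr2R above chr3L, by 0.18 ± 0.057, and above chrX, by 0.14 ± 0.12.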

How the data were processed

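The authors deposited, for each library, log2 observed over expected interaction scores for bin pairs of one arm. According to the methods, reads with the EcoRI site were filtered by quality and mapped with Bowtie2 to all combinations of 5C primers (dm3). They were scaled to the mapped total, normalized with HiTC and my5C against an uncrosslinked control, binned and smoothed by medians. Versions are not given in the sources used here. These are not counts, so no count test was run and precision comes from the 3 WT libraries.

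Scores of 0 were dropped. For each arm and library, 8 measures were computed and compared by exact permutation within libraries. The measures took every bin with a value. For named bins, counts of bins, correlations over bins and genes, only bins with a value in at least 0.5 of their pairs were used. Items named are each arm and, per arm, the 3 best patches over 200 kb, the 2 bins in most such pairs and the 3 bins with the highest and lowest means; genes were chosen from those with dm3 positions after their values were seen. Members and lists were chosen with earlier results of these data known. 31 of the 32 genes had the same length in RefSeq Release 6 annotation, which was used for names only. The procedure was tested on simulated data. Alternatives covered bin size, zeros, centring, distance range, shared pairs, close pairs, the block and each replicate. chrX at 10 kb with pairs up to 400 kb, and the share over 200 kb without the 2 top bins of each arm, were added after seeing the data. Other libraries, contacts between arms and gene expression were not analysed here. Python 3.11.15, numpy 2.4.6, scipy 1.17.1, pandas 2.3.3 and matplotlib 3.10.9 were used.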

Additional observations from a re-analysis of the deposited data

Results flagged for a closer look

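The proximal minus distal difference was above 0 in all 3 WT libraries on chr2R, with a mean of 0.079, and below 0 in all 3 on chr2L, chr3L and chrX, with means of -0.051, -0.098 and -0.065. Opposite signs in every library drew attention to it. The arm-against-arm differences in sign were not tested singly, and the test over all arms did not pass (exact permutation test, adjusted p = 0.288). In WT replicate 3 the value of chrX was -0.0038, close to 0.

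The slope of the score with distance differed between arms by the test of the difference itself (exact permutation test, adjusted p = 0.0319), with chr2L the steepest in 3 of 3 libraries.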

How the results depend on the processing

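The order of the arms was not turned round in any tested measure, but single values and the leading arm changed. With zeros kept as values, the slope of chr3R was 0.00098 (-0.069 with zeros dropped) and its proximal minus distal difference -0.0050 (0.040 with zeros dropped), and without WT replicate 3 that difference was -0.088. In the share above 0 over 200 kb, chr2L and not chrX was highest with zeros kept, with pairs up to 400 kb, with chrX at 10 kb added to that and without WT replicate 1. With each arm centred, chr2L was the lowest there, and chrX was the lowest below 100 kb. The shallowest slope was that of chr3R and not chrX with zeros kept and without WT replicate 2. The slope, the share above 0 below 100 kb, the SD of bin means and the variance by bin passed the threshold with all 3 libraries and not with 2. With 2 libraries a measure could hardly pass after adjustment, so these misses say little. Leaving out each replicate in turn, the range over arms (highest minus lowest arm mean) ran from 0.085 to 0.11 for the slope, from 28.4 to 45.9 points for the share below 100 kb, from 0.083 to 0.11 for the SD and from 14.5 to 24.6 points for the variance by bin. The variance by bin also missed the threshold with pairs up to 400 kb and with chrX at 10 kb added to that, with a range of 15.1 points in both (exact permutation test, adjusted p = 0.111 and 0.198). The adjusted p of the slope ran from 0.00167 to 0.233 over its 11 alternatives. Without the replicate block, with 100000 resamples, the adjusted permutation p was 0.0191 for the slope, 0.0395 for the share below 100 kb, 0.00968 for the SD and 0.0268 for the variance by bin, and no call changed. The number of long-range pairs above 0 in all libraries, 146, became 251 beyond 100 kb, 59 from 200 to 400 kb, 80 with chrX at 10 kb and 4824 with each arm centred on its median, and ran from 182 to 641 when the pairs had to pass in 2 libraries only, with 289 without WT replicate 1 and 641 without WT replicate 3. From 200 to 400 kb, 28 of the pairs were on chr2L and 20 on chrX, so the order of these arms rests on the farther pairs of chrX. A library had 766 to 779 scored pairs at 200 to 300 kb on chr2L and 1544 to 1547 on chrX. At 300 to 400 kb it had 671 to 685 on chr2L and 1133 to 1136 on chrX. Without the 2 top bins of each arm, the share above 0 over 200 kb was 10.2% on chrX, 9.78% on chr2L, 2.68% on chr3L, 2.51% on chr2R and 0% on chr3R. On chrX, other bins of the same patches stayed in. Centring sets the median of each arm to 0, so the median score could not be compared there. The depth behind single scores is unknown, and replicate error over 3 libraries is the only measure of precision.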
